A study of Bos taurus with 16 samples.

Results

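The chaperones and protein folding genes described here are the 56 genes whose symbol in the platform annotation starts with HSPA, HSPB, HSPD, HSPE, HSPH, HSP90, DNAJ or PDIA, or with CCT followed by a digit. They are 56 of the 9155 genes that the annotation names on the array. The rule uses the symbols and no measured difference between treatments, but it was chosen with earlier results of these data known. The same holds for the role groups and lists used below. Of the 56 genes, 37 had 1 probe set and 19 had several, 87 probe sets in all, and a gene with several is represented by the brightest of them, averaged over the 16 arrays. RefSeq lists 87 protein-coding cattle genes with these prefixes, and the other 31, among them CCT7, PDIA6 and HSPA13, were not analysed here. The prefixes also take in HSPBP1 and HSPBAP1, which bind heat shock proteins and are not chaperones of these families themselves.

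Chaperones bind unfolded or partly folded proteins and, mostly in cycles driven by ATP, let them reach their final shape. HSP70 proteins (HSPA) are directed to their clients by J proteins (DNAJ) and reset by nucleotide exchange factors, HSP90 proteins finish clients such as steroid receptors and kinases, and the chaperonin CCT encloses actin and tubulin in a ring. HSPD1 and HSPE1 form the matching chamber in mitochondria, where HSPA9 also pulls in imported proteins, and in the endoplasmic reticulum HSPA5, HSP90B1 and the protein disulfide isomerases (PDIA) fold secreted and membrane proteins. Theca interna cells, the androgen-producing layer around the ovarian follicle, carry out the first step of steroid synthesis in mitochondria and secrete hormones such as INSL3, so both compartments are in use there.

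Primary theca interna cells came from abattoir ovaries of adult cattle, and each culture pooled cells from about 50 follicles of 4 to 6 mm. All groups were cultured for 6 days without serum, and the treatments were present from day 3 to day 6. The 4 groups were an untreated control, LH at 160 pg/ml, BMP6 at 10 ng/ml, and both together (LH+BMP6). LH is the pituitary hormone that drives theca steroidogenesis, and BMP6 is a growth factor of the TGF-beta superfamily made in the follicle. Each group held 4 arrays from 4 experiments on different batches of ovaries, so the replicates are pools of many animals, and no vehicle is named for the control.

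All values are log2 signals of Affymetrix bovine arrays, for which array medians lay between 6.10 and 6.16 and lower quartiles between 4.31 and 4.43. DNAJC22, DNAJC6 and HSPB3 averaged below the lower quartile of the arrays, where a difference may be understated. The theca markers CYP17A1, INSL3, STAR, LHCGR, HSD3B1, CYP11A1 and NR5A1 averaged 9.78 to 10.30 on the control arrays and 10.27 to 11.42 with LH, against 7.25 to 7.58 with BMP6 and 7.19 to 7.97 with LH+BMP6. Of these 7 markers, 6 were called lower with BMP6 than in control and 7 were called lower with LH+BMP6 than with LH. The 5 measured granulosa markers averaged 5.26 to 5.55 in control, 5.20 to 5.56 under LH, 5.46 to 5.62 under BMP6 and 5.40 to 5.66 under LH+BMP6. FSHR and CYP19A1 of that list had control means of 3.50 and 4.49, while SERPINE2 had 9.99 and was the 1 of 5 called higher, by 0.92 with BMP6 and by 1.18 with LH+BMP6 against LH. The 6 measured leukocyte markers averaged 7.02 to 7.11 in control and 6.60 to 7.17 with LH, against 7.13 to 7.77 with BMP6 and 7.43 to 7.84 with LH+BMP6, and 1 of 6 and 5 of 6 of them were called higher in the same 2 comparisons. Markers of pericytes and smooth muscle cells averaged 7.38 to 7.60 in control, 7.19 to 7.65 under LH, 7.33 to 7.84 under BMP6 and 7.18 to 7.75 under LH+BMP6. Of these 5, DES and CNN1 were called higher in both BMP6 comparisons, and RGS5 was called lower with LH+BMP6 than with LH. Endothelial markers averaged 5.64 to 6.23 in control, 5.82 to 6.27 under LH, 5.36 to 5.85 under BMP6 and 5.36 to 5.79 under LH+BMP6, and 1 of 7, CLDN5, was called lower in both. In such bulk RNA, fewer cells of a type and less RNA per cell cannot be told apart, and the part of the cell mixture in the results on chaperones was not tested. The actin control probes differed between the 3′ and 5′ ends, a measure of RNA integrity. Their difference was 2.20 ± 0.35 in control, 2.10 ± 0.16 under LH, 1.86 ± 0.28 under BMP6 and 1.72 ± 0.28 under LH+BMP6 (SD, n = 4). For the GAPDH control probes it was 0.34 ± 0.05, 0.27 ± 0.11, 0.23 ± 0.04 and 0.14 ± 0.02 in the same order. Every BMP6 array lay below every control array for GAPDH, at 0.18 to 0.27 against 0.29 to 0.41, while LH and LH+BMP6 overlapped. The part of RNA integrity in the results on chaperones was not tested either. On 3 arrays (control replicates 1 and 3 and LH replicate 1) the hybridisation controls read 8.66 to 8.71, against 9.84 to 10.17 on the other 13, and the calls that hold without these arrays are given at the end.

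The question for this family is how it stood with BMP6, without LH and with it. The 6 mitochondrial chaperones among these genes were called lower with BMP6 in both settings, and so were HSPA4, HSPB6, PDIA5 and CCT6A of other roles. The main endoplasmic reticulum and cytosolic chaperones HSPA5, HSP90B1, HSPA8 and HSP90AA1 were not called. By limma's moderated test with Benjamini-Hochberg adjustment over all 24016 probe sets, at an adjusted p under 0.05, 2 of the 56 genes were called higher with BMP6 than in control and 12 were called lower. Of all named genes, 9.31% were called higher and 15.5% lower in that comparison. With LH+BMP6 against LH, 2 of 56 were again called higher and 12 lower, against 11.7% and 15.5% of all named genes. The share of chaperones called in either direction, 25% in both comparisons, was thus near the background of 24.8% and 27.2%, and the family as a whole did not stand apart by its count. Its median difference was -0.08 for BMP6 against control, where all named genes had -0.02, and -0.06 for LH+BMP6 against LH, where they had -0.03.

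The called differences were small. They ran from 1.14-fold to 1.61-fold for BMP6 against control and from 1.15-fold to 1.55-fold for LH+BMP6 against LH. In each comparison, all 14 called genes differed the same way in 4 of 4 replicate numbers, and for 12 of the 14 the ranges of the 2 groups did not overlap. These counts describe genes already picked by the call on the same arrays, so they add no support to it. The replicate numbers were not taken as pairs in the test, and the share with ranges apart was not computed over all named genes. The comparisons have no array in common, although they share the estimate of the spread and, by the labels, the batches of ovaries. Of the 14 genes called in each, 11 were called in both, in the same direction, which is 78.6% of each list. Over the 56 genes the 2 sets of differences correlated with r = 0.89 and rho = 0.83, given as a description, since genes are not independent, and 47 of 56 had the same sign. The overlap, correlation and shared signs were not computed over all named genes, so they are not shown to be particular to this family.

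**Figure D1:**
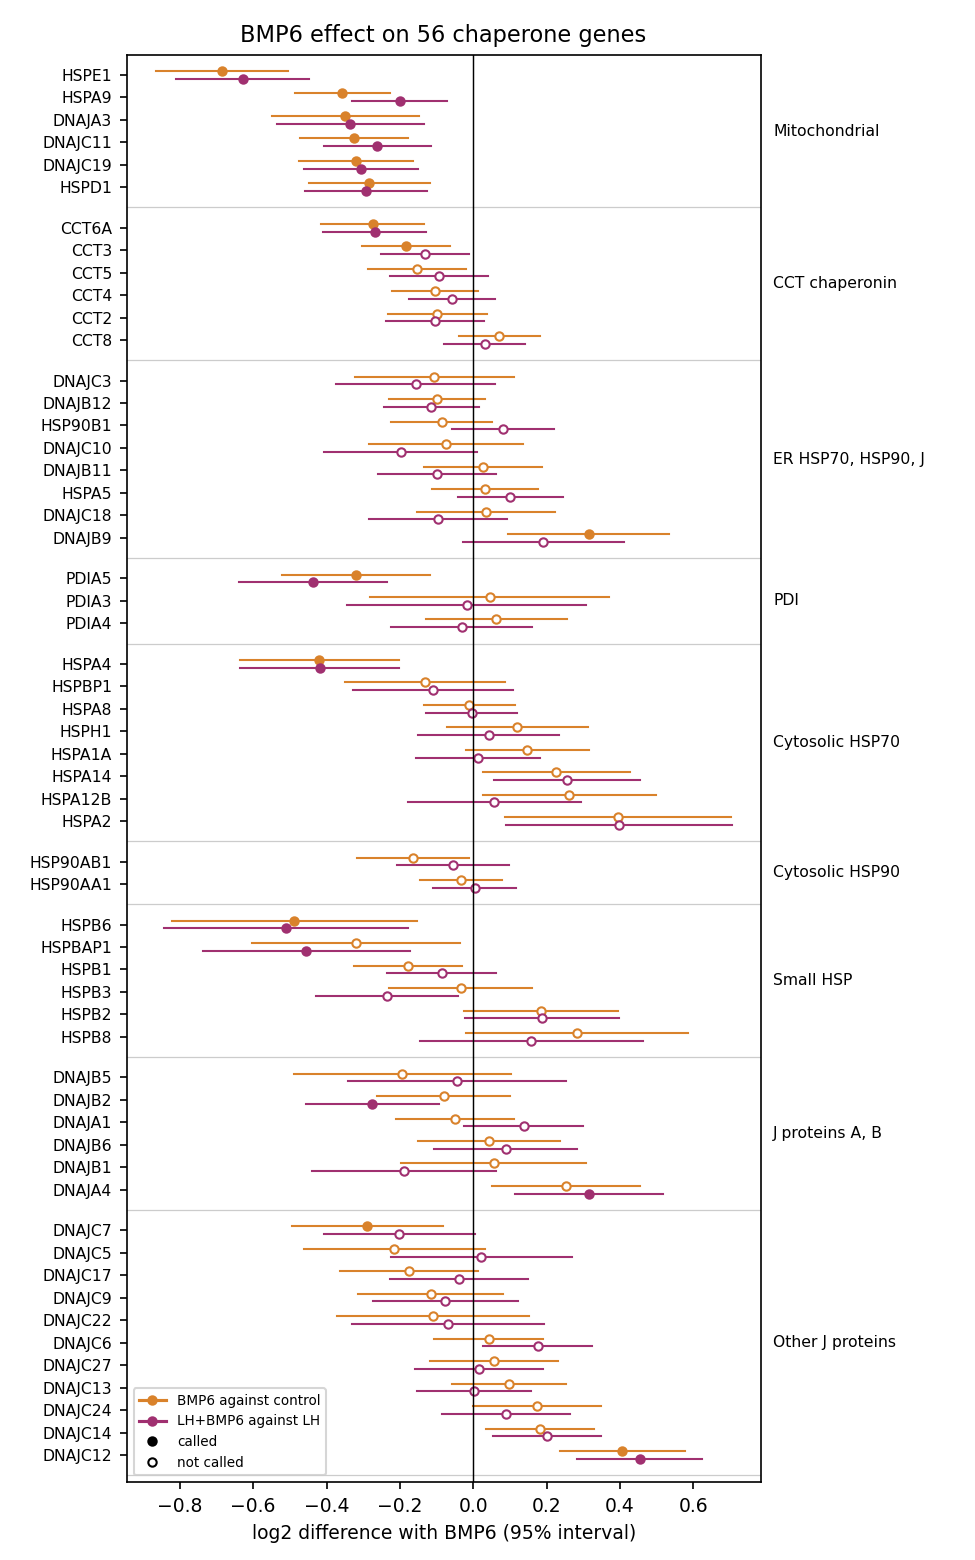
Log2 difference with BMP6 for each of the 56 genes, without LH (BMP6 against control, orange) and with LH (LH+BMP6 against LH, purple), grouped by role; points are limma estimates, bars are 95% intervals, and filled points are called at an adjusted p under 0.05. The 6 mitochondrial chaperones are filled on the lower side in both comparisons, while most points of the other roles are open and near 0.

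The mitochondrial chaperones were HSPE1, HSPD1, HSPA9, DNAJA3, DNAJC11 and DNAJC19. With BMP6, 6 of 6 were called lower in each comparison, against 15.5% of all named genes in each. Their median difference was -0.34 for BMP6 against control and -0.30 for LH+BMP6 against LH. This role group was drawn up with earlier results of these data known. TRAP1 and GRPEL1, which also work in mitochondria, were in another list and are given below. HSPE1, the small lid of the mitochondrial chaperonin, read 11.36, 11.42, 11.28 and 11.27 on the control arrays and 10.78, 10.42, 10.74 and 10.64 with BMP6. It read 11.43, 11.05, 11.34 and 11.36 with LH and 10.72, 10.61, 10.66 and 10.68 with LH+BMP6. Every array with BMP6 lay below every array without it. HSPE1 fell by 0.69 ± 0.09 on the log2 scale with BMP6 (SE, adjusted p = 3.72e-05), which is 1.61-fold and the largest decrease in the family, and by 0.63 ± 0.09 with LH+BMP6 against LH (adjusted p = 7.51e-05).

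HSPD1, the ring subunit that HSPE1 closes, is the neighbour of HSPE1 in the RefSeq annotation, the only pair of adjacent genes among the 56. It read 11.67, 11.89, 11.90 and 11.68 in control and 11.67, 11.51, 11.40 and 11.43 with BMP6, with 11.90, 11.82, 11.75 and 11.67 under LH and 11.63, 11.48, 11.40 and 11.46 under LH+BMP6. The ranges were apart in both comparisons, but only just, since BMP6 replicate 1 reached nearly the lowest control array. HSPD1 fell by 0.28 ± 0.08 with BMP6 (adjusted p = 0.0175) and by 0.29 ± 0.08 with LH+BMP6 against LH (adjusted p = 0.0131), a smaller difference than that of its partner in both. The first of these calls did not survive leaving out control replicate 2 or 3 or BMP6 replicate 3 or 4 (adjusted p from 0.0572 to 0.0635), at differences of -0.24 to -0.26.

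HSPA9, the mitochondrial HSP70 that drives protein import and folding in the matrix, read 9.85, 9.82, 9.81 and 9.79 in control and 9.45, 9.53, 9.51 and 9.35 with BMP6. With LH it read 9.76, 9.64, 9.74 and 9.80, and with LH+BMP6 9.46, 9.49, 9.62 and 9.57. The groups did not overlap in either comparison. The decrease was 0.36 ± 0.06 with BMP6 (1.28-fold, adjusted p = 0.000609) and 0.20 ± 0.06 with LH+BMP6 against LH (adjusted p = 0.0273). With its probe sets averaged, 1 of them dim, the differences were -0.17 and -0.11 and neither was called (adjusted p = 0.0633 and 0.233). The latter call did not survive leaving out LH replicate 1, 3 or 4 or LH+BMP6 replicate 1 or 2 (adjusted p from 0.0528 to 0.078, differences of -0.18 to -0.20).

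The 3 mitochondrial J proteins moved by similar amounts. DNAJC19, a part of the import motor at the inner membrane, read 8.80, 8.88, 8.65 and 8.70 in control and 8.45, 8.36, 8.49 and 8.45 with BMP6, and 8.88, 8.94, 8.90 and 8.70 with LH against 8.57, 8.44, 8.54 and 8.65 with LH+BMP6. DNAJC11, which is linked to the organisation of the inner membrane, read 8.19, 8.10, 8.15 and 8.09 in control and 7.73, 7.92, 7.83 and 7.76 with BMP6, and 8.29, 8.07, 8.04 and 8.13 with LH against 7.87, 7.89, 7.88 and 7.84 with LH+BMP6. DNAJA3, the matrix J protein that works with HSPA9, read 7.53, 7.40, 7.43 and 7.43 in control and 7.01, 7.24, 6.96 and 7.19 with BMP6, and 7.73, 7.36, 7.32 and 7.43 with LH against 7.14, 7.25, 7.09 and 7.02 with LH+BMP6. For none of the 3 genes did the groups overlap in either comparison. DNAJC19 fell by 0.32 ± 0.07 (adjusted p = 0.00544) without LH and by 0.31 ± 0.07 (adjusted p = 0.00661) with it, and with its probe sets averaged neither was called (-0.27 and -0.34, adjusted p = 0.127 and 0.0521). DNAJC11 fell by 0.33 ± 0.07 (adjusted p = 0.00313) and by 0.26 ± 0.07 (adjusted p = 0.0123). DNAJA3 fell by 0.35 ± 0.09 (adjusted p = 0.0156) and by 0.33 ± 0.09 (adjusted p = 0.0178), and its calls did not survive leaving out control replicate 1 or BMP6 replicate 3 (adjusted p = 0.0523 and 0.0539, differences of -0.32 and -0.30) and LH replicate 1 or LH+BMP6 replicate 4 (adjusted p = 0.0695 and 0.0514, differences of -0.25 and -0.30).

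When the 3 arrays with weak hybridisation controls were left out, 4 of the 6 mitochondrial genes were called lower with BMP6 than in control and 2 of 6 with LH+BMP6 than with LH, against 9.83% and 11.2% of all named genes. HSPE1 and DNAJC19 kept both calls then, with differences of -0.70 and -0.35 without LH and -0.58 and -0.30 with it. Outside these names, the mitochondrial HSP90 TRAP1 fell by 0.26 ± 0.07 with BMP6 (adjusted p = 0.0164; -0.24, adjusted p = 0.0589, on leaving out control replicate 2) and was not called with LH+BMP6 against LH (-0.08, adjusted p = 0.481). GRPEL1, the exchange factor of HSPA9, was called in neither (-0.07 and -0.05, adjusted p = 0.589 and 0.729). Theca markers, whose array means are given above, were lower in the same arrays with BMP6, and their part in the mitochondrial decrease was not tested.

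**Figure D2:**
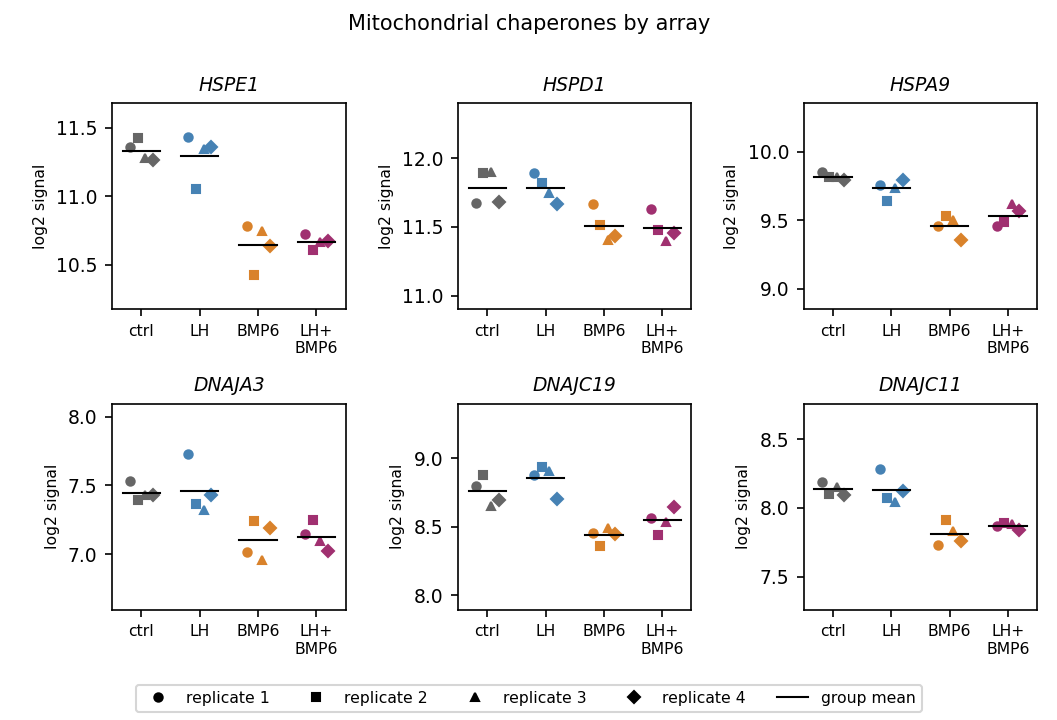
Log2 signal of the 6 mitochondrial chaperones on each of the 16 arrays by treatment group; each marker is 1 array, its shape gives the replicate number, and the horizontal line is the group mean. For each gene the BMP6 arrays lie below the control arrays and the LH+BMP6 arrays below the LH arrays, most widely for HSPE1.

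Among the 6 measured subunits of the cytosolic chaperonin CCT, 2 fell with BMP6 against control (CCT6A and CCT3) and 1 with LH+BMP6 against LH (CCT6A). The median differences of the 6 were -0.13 and -0.10. Of all named genes, 15.5% were called lower in each comparison. CCT6A, the zeta subunit, read 11.19, 11.13, 11.20 and 11.01 in control and 10.93, 10.77, 10.90 and 10.83 with BMP6. It read 11.18, 10.99, 11.06 and 11.09 with LH and 10.88, 10.76, 10.71 and 10.90 with LH+BMP6, so the groups were apart in both comparisons. CCT6A fell by 0.27 ± 0.07 in each (adjusted p = 0.00749 and 0.00779), and without the 3 arrays with weak controls the first difference was -0.21 and not called (adjusted p = 0.116). CCT3, the gamma subunit, fell by 0.18 ± 0.06 with BMP6 (adjusted p = 0.0329) and differed by -0.13 with LH+BMP6 against LH (adjusted p = 0.117). The CCT3 call did not survive leaving out control replicate 1, 2 or 3 or BMP6 replicate 2, 3 or 4 (adjusted p from 0.0506 to 0.101, differences of -0.16 to -0.19).

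CCT2, the beta subunit, was not called. It read 10.22, 10.16, 10.24 and 10.09 in control, 10.33, 10.14, 10.06 and 10.17 under LH, 10.05, 10.14, 10.08 and 10.05 under BMP6, and 10.09, 10.04, 10.05 and 10.11 under LH+BMP6. Its groups overlapped, with a difference of -0.10 in both comparisons (95% intervals -0.23 to 0.04 and -0.24 to 0.03). CCT4, CCT5 and CCT8 were not called either, at -0.10, -0.15 and 0.07 for BMP6 against control. Of 11 measured partners of CCT (prefoldin, tubulin cofactors and phosducin-like genes), 2 fell with BMP6, the prefoldin subunit PFDN5 (-0.41 ± 0.10, adjusted p = 0.00946) and the tubulin cofactor TBCA (-0.37 ± 0.09, adjusted p = 0.00921). With LH+BMP6 against LH 3 fell, PFDN5 (-0.38 ± 0.10, adjusted p = 0.0135), PFDN6 (-0.28 ± 0.08, adjusted p = 0.021) and PFDN2 (-0.21 ± 0.06, adjusted p = 0.0222). None of the 11 was called higher in these comparisons, and their medians were -0.11 and -0.21. The shares called were 18.2% and 27.3%, near the 24.8% and 27.2% of all named genes. In the second comparison the call of PFDN5 failed without LH+BMP6 replicate 2 (-0.31, adjusted p = 0.051), that of PFDN6 without LH replicate 1 or LH+BMP6 replicate 3 or 4 (adjusted p from 0.052 to 0.0733, differences of -0.24 to -0.28), and that of PFDN2 without LH replicate 1 or 2 or LH+BMP6 replicate 1, 3 or 4 (adjusted p from 0.0534 to 0.0663, differences of -0.19 to -0.20).

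In the endoplasmic reticulum, the HSP70 and HSP90 of the compartment were not called and 1 J protein was. HSPA5 (BiP), the HSP70 that folds secreted proteins and holds the stress sensors inactive, read 12.00, 12.08, 12.17 and 12.15 in control and 12.20, 12.03, 12.10 and 12.20 with BMP6. It read 12.16, 11.99, 12.00 and 12.07 with LH and 12.33, 12.15, 12.10 and 12.05 with LH+BMP6. These ranges overlapped, and the differences of 0.03 (95% interval -0.11 to 0.18) and 0.10 (-0.04 to 0.25) were not called. HSP90B1, the HSP90 of this compartment, read 11.71, 11.85, 11.86 and 11.74 in control, 11.61, 11.55, 11.81 and 11.82 under LH, 11.69, 11.72, 11.70 and 11.71 under BMP6, and 11.75, 11.82, 11.70 and 11.83 under LH+BMP6. Its differences with BMP6 were -0.09 (-0.22 to 0.05) and 0.08 (-0.06 to 0.22), again with overlapping ranges.

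DNAJB9, a J protein that delivers misfolded proteins to HSPA5, read 9.71, 9.55, 9.80 and 9.85 in control and 9.86, 10.21, 9.95 and 10.15 with BMP6. It rose by 0.31 ± 0.10 (adjusted p = 0.0444), with ranges just apart. With LH it read 9.75, 9.87, 9.72 and 9.85 and with LH+BMP6 10.02, 10.15, 10.11 and 9.67, where replicate 4 lay below all LH arrays and the difference of 0.19 was not called (adjusted p = 0.229), whereas without that array it was 0.30 and called (adjusted p = 0.0325). The DNAJB9 call did not survive the removal of any of 10 single arrays, namely control replicates 1, 2 and 3, BMP6 replicates 2, 3 and 4, LH replicates 3 and 4 and LH+BMP6 replicates 1 and 3 (adjusted p from 0.0503 to 0.145, differences of 0.26 to 0.34). DNAJC3, an inhibitor of the stress kinase pathway that also binds HSPA5, read 8.73, 8.76, 8.91 and 8.88 in control, 9.16, 9.17, 8.84 and 8.81 under LH, 8.57, 8.91, 8.74 and 8.62 under BMP6, and 8.65, 8.98, 8.92 and 8.79 under LH+BMP6. Its groups overlapped and its BMP6 differences of -0.11 and -0.16 were not called (adjusted p = 0.558 and 0.329). The other 4 genes of this role, DNAJB11, DNAJB12, DNAJC10 and DNAJC18, were not called in either comparison.

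Among the 3 protein disulfide isomerases, which form and rearrange disulfide bonds, 1 was called lower in both comparisons, against 15.5% of all named genes in each. PDIA5 read 9.28, 9.46, 9.18 and 9.22 in control and 8.64, 9.09, 9.05 and 9.08 with BMP6, and 9.60, 9.39, 9.43 and 9.47 with LH against 8.98, 9.14, 8.98 and 9.04 with LH+BMP6. The groups were apart in both comparisons, and BMP6 replicate 1 was well below its group. PDIA5 fell by 0.32 ± 0.10 with BMP6 (adjusted p = 0.027) and by 0.44 ± 0.10 with LH+BMP6 against LH (1.35-fold, adjusted p = 0.00338). With its probe sets averaged, the differences were -0.15 and -0.14 and neither was called (adjusted p = 0.224 and 0.26). The call against control did not hold without BMP6 replicate 1 or without control replicate 1 or 2 (adjusted p from 0.0574 to 0.0982, differences of -0.21 to -0.32). PDIA4 read 9.03, 9.38, 9.39 and 9.43 in control, 9.48, 9.38, 9.31 and 9.51 under LH, 9.36, 9.44, 9.42 and 9.26 under BMP6, and 9.55, 9.39, 9.22 and 9.40 under LH+BMP6. Its groups overlapped, with differences of 0.06 (-0.13 to 0.26) and -0.03 (-0.22 to 0.16), and PDIA3 was not called at 0.04 and -0.02.

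The unfolded protein response and folding genes of the endoplasmic reticulum that carry other names gave a similar mixed picture. Of 21 measured, 1 rose and 5 fell with BMP6 against control (median -0.08), which is 28.6% called against 24.8% of all named genes. ERP29, a folding factor related to the disulfide isomerases, fell by 0.69 ± 0.12 (adjusted p = 0.000725). TXNDC5, a thioredoxin-domain isomerase, fell by 0.40 ± 0.11 (adjusted p = 0.0165), not called on leaving out BMP6 replicate 2 (-0.31, adjusted p = 0.0579). PPP1R15A, which directs the phosphatase that lifts the translation block of the stress response, was the gene that rose, by 0.40 ± 0.11 (adjusted p = 0.0216), not called on leaving out BMP6 replicate 2 or control replicate 2 (adjusted p = 0.0768 and 0.0634, differences of 0.30 and 0.37). With LH+BMP6 against LH 2 rose and 2 fell (median -0.10), which is 19.0% called against 27.2% of all named genes. PPP1R15A rose by 0.61 ± 0.11 (adjusted p = 0.00103), and ERP29 fell by 0.70 ± 0.12 (adjusted p = 0.000513). ERO1A, the oxidase that supplies disulfide bonds, rose by 0.66 ± 0.21 (adjusted p = 0.0323), not called on leaving out any 1 of the 4 LH arrays or LH+BMP6 replicate 1, 2 or 3 (adjusted p from 0.0531 to 0.116, differences of 0.47 to 0.67). With the probe sets of ERO1A averaged, the difference was 0.30 and not called (adjusted p = 0.0592). Its brightest probe set was dim enough to drop out where dim probe sets were removed. The other genes of this list called lower with BMP6 than in control were SYVN1, SEC61B and PPIB. PPIB was called lower with LH+BMP6 than with LH as well. Under the 24 other ways of processing described at the end, SYVN1 kept its call against control in 24 and SEC61B and PPIB in 23. PPIB kept its call with LH+BMP6 against LH in 19. ATF4, DDIT3, HERPUD1, CALR and CANX, among the usual readouts of this response, were not called in either comparison, while XBP1, ATF6 and ERN1 were not analysed here.

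**Figure D3:**
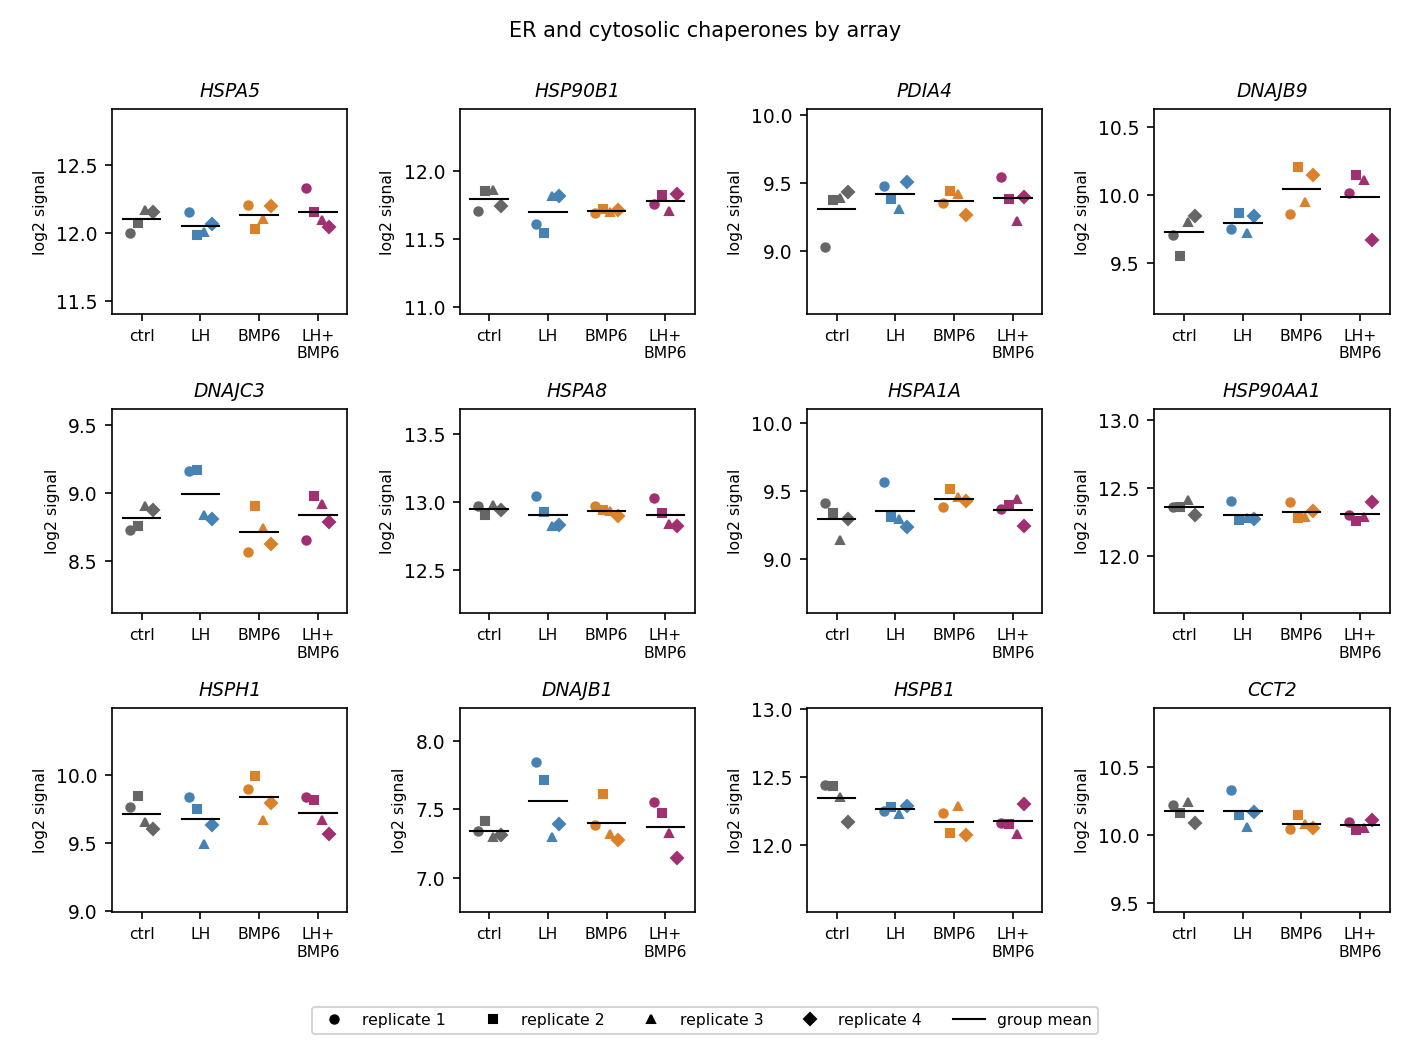
Log2 signal on each of the 16 arrays for 12 chaperones of the endoplasmic reticulum and cytosol, by treatment group; each marker is 1 array, its shape gives the replicate number, and the horizontal line is the group mean. DNAJB9 is higher on the BMP6 arrays than on the control arrays, whereas the control and BMP6 arrays overlap for the other 11 genes, HSPA5, HSPA8 and HSP90AA1 among them.

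In the cytosol, the heat-inducible and constitutive HSP70 and HSP90 genes were not called, and the HSP70 partner HSPA4 was. HSPA4, a nucleotide exchange factor of HSP70, read 10.56, 10.49, 10.51 and 10.31 in control and 10.34, 9.81, 10.04 and 10.02 with BMP6. With LH it read 10.44, 10.34, 10.38 and 10.45 and with LH+BMP6 10.11, 9.72, 10.02 and 10.09. BMP6 replicate 1 lay above the lowest control array, while LH and LH+BMP6 were apart. HSPA4 fell by 0.42 ± 0.10 in each comparison (1.34-fold, adjusted p = 0.00809 and 0.0073), and without the 3 arrays with weak controls the difference from control was -0.35 and not called (adjusted p = 0.115).

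HSPA8, the constitutive HSP70, read 12.97, 12.90, 12.98 and 12.94 in control and 12.97, 12.94, 12.94 and 12.90 with BMP6, with 13.04, 12.92, 12.83 and 12.83 under LH and 13.03, 12.92, 12.83 and 12.82 under LH+BMP6. Its difference of -0.01 with BMP6 had a 95% interval of -0.13 to 0.11, and the interval with LH+BMP6 against LH was -0.13 to 0.12. HSPA1A, the heat-inducible HSP70, read 9.41, 9.34, 9.14 and 9.29 in control and 9.57, 9.31, 9.29 and 9.23 with LH, and 9.38, 9.52, 9.46 and 9.42 with BMP6 and 9.37, 9.40, 9.44 and 9.24 with LH+BMP6. The groups overlapped and the differences with BMP6 were 0.15 (-0.02 to 0.32) and 0.01 (-0.16 to 0.18). The gene ID that the annotation gives this probe set is not in the current RefSeq table, so its name rests on the annotation. The near-identical HSPA1B cannot be told apart from HSPA1A by such probes, and 1 of the 5 other HSPA1A probe sets was called lower in both comparisons (-0.45, adjusted p = 0.001, and -0.24, adjusted p = 0.037), so the probe sets of this gene disagreed. HSPH1, another exchange factor induced by heat, read 9.76, 9.85, 9.65 and 9.60 in control, 9.83, 9.75, 9.49 and 9.63 under LH, 9.89, 9.99, 9.67 and 9.79 under BMP6, and 9.83, 9.81, 9.66 and 9.56 under LH+BMP6. These ranges overlapped (0.12, -0.07 to 0.31, and 0.04, -0.15 to 0.24). HSPA2 had larger positive differences of 0.39 and 0.40 that were not called (adjusted p = 0.073 and 0.0651). On leaving out BMP6 replicate 2 they were 0.52 and 0.40 and both called (adjusted p = 0.0147 and 0.0338), and on leaving out LH+BMP6 replicate 2 they were 0.39 and 0.53 and both called (adjusted p = 0.0403 and 0.0137). On leaving out LH+BMP6 replicate 1 the first was called as well, at 0.39 (adjusted p = 0.0495). HSPA14, HSPA12B and HSPBP1 were not called. HSPA14 had 0.23 and 0.26 (adjusted p = 0.113 and 0.0662). Its difference with LH+BMP6 against LH was called on leaving out BMP6 replicate 2, LH replicate 2 or LH+BMP6 replicate 4 (adjusted p = 0.0355, 0.0336 and 0.0259).

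HSP90AA1, the stress-inducible cytosolic HSP90, read 12.36, 12.36, 12.41 and 12.30 in control, 12.41, 12.27, 12.28 and 12.27 under LH, 12.40, 12.28, 12.29 and 12.33 under BMP6, and 12.30, 12.25, 12.29 and 12.40 under LH+BMP6. All groups overlapped, with differences of -0.03 (-0.15 to 0.08) and 0.00 (-0.11 to 0.12). HSP90AB1, its constitutive relative, was not called at -0.16 and -0.05 (adjusted p = 0.139 and 0.672). Of the 23 measured genes for heat shock factors and cochaperones of HSP70 and HSP90, 1 rose and 3 fell with BMP6 (median -0.11), and 2 rose and 4 fell with LH+BMP6 against LH (median -0.06). The shares called were 17.4% and 26.1%, against 24.8% and 27.2% of all named genes. BAG5, which regulates HSP70, rose by 0.50 ± 0.11 (adjusted p = 0.00386) and by 0.41 ± 0.11 (adjusted p = 0.0147), the latter not called on leaving out LH+BMP6 replicate 1 (0.33, adjusted p = 0.0523). BAG3, which links HSP70 to autophagy, rose by 0.45 ± 0.11 with LH+BMP6 against LH (adjusted p = 0.00878) and had 0.17 with BMP6 against control (adjusted p = 0.366). PPID, an HSP90-binding cyclophilin, fell by 0.35 ± 0.10 with BMP6 (adjusted p = 0.0165), not called on leaving out BMP6 replicate 3 or 4 or control replicate 1 or 2 (adjusted p from 0.0501 to 0.0634, differences of -0.30 to -0.33). PPID was called lower with LH+BMP6 against LH as well (-0.30), a call kept under 17 of the 24 other ways of processing described at the end. STUB1 was called lower in both comparisons, calls kept under 15 and 21 of the 24. TOMM70 was called lower with LH+BMP6 against LH and kept that call under all 24. FKBP4, an HSP90 partner in steroid receptor complexes, fell by 0.37 ± 0.10 with LH+BMP6 against LH (adjusted p = 0.0125), not called on leaving out LH+BMP6 replicate 3 (-0.31, adjusted p = 0.0528). The heat shock factor HSF1 itself was not called (-0.16 and -0.04).

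Of the 6 small heat shock proteins and their partner, 1 fell with BMP6 and 2 fell with LH+BMP6 against LH. The share of all named genes called lower was 15.5% in each comparison. HSPB6, a small heat shock protein of muscle that binds unfolded clients without ATP, read 7.76, 7.52, 7.74 and 7.45 in control and 7.37, 6.73, 7.39 and 7.04 with BMP6. It read 7.58, 7.51, 7.75 and 7.53 with LH and 7.23, 6.65, 7.00 and 7.44 with LH+BMP6. The groups were apart in both comparisons, although HSPB6 was among the most variable members within groups, with an SD of 0.248 against a median of 0.118 over the 56 genes. HSPB6 fell by 0.49 ± 0.16 (adjusted p = 0.0401) and by 0.51 ± 0.16 (adjusted p = 0.0288). The first call did not survive leaving out control replicate 1, 2 or 3, BMP6 replicate 2 or 4 or LH+BMP6 replicate 3 (adjusted p from 0.0507 to 0.137, differences of -0.35 to -0.52), and the second without LH replicate 1 or 3 or LH+BMP6 replicate 2 or 3 (adjusted p from 0.058 to 0.105, differences of -0.37 to -0.51).

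HSPBAP1, which binds HSPB1, read 6.43, 6.19, 5.99 and 6.09 in control and 5.99, 5.77, 5.99 and 5.67 with BMP6, and 6.49, 6.20, 5.94 and 6.20 with LH against 6.00, 5.55, 5.87 and 5.59 with LH+BMP6. The ranges overlapped in both comparisons. Its difference was -0.32 ± 0.13 with BMP6 (adjusted p = 0.115), and it fell by 0.45 ± 0.13 with LH+BMP6 against LH (adjusted p = 0.0223), not called on leaving out LH replicate 1 or LH+BMP6 replicate 2 or 4 (adjusted p from 0.0644 to 0.0863, differences of -0.36 to -0.40). HSPB1, the widespread small heat shock protein, read 12.44, 12.44, 12.35 and 12.17 in control, 12.25, 12.28, 12.23 and 12.28 under LH, 12.24, 12.09, 12.29 and 12.08 under BMP6, and 12.16, 12.15, 12.08 and 12.31 under LH+BMP6. Its differences of -0.18 ± 0.07 and -0.09 ± 0.07 were not called (adjusted p = 0.0931 and 0.448), and its ranges overlapped; without control replicate 4 the first was -0.24 and called (adjusted p = 0.0254). HSPB2, HSPB3 and HSPB8 were not called, at 0.18, -0.03 and 0.28 with BMP6.

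The remaining 17 J proteins held the gene that rose in both comparisons. DNAJC12, a J protein that accompanies the aromatic amino acid hydroxylases, read 7.72, 7.74, 7.60 and 7.53 in control and 7.97, 8.16, 7.97 and 8.13 with BMP6. It read 7.52, 7.82, 7.60 and 7.68 with LH and 8.10, 8.13, 8.17 and 8.03 with LH+BMP6. Every array with BMP6 lay above every array without it. DNAJC12 rose by 0.41 ± 0.08 (1.33-fold, adjusted p = 0.00187) and by 0.45 ± 0.08 (1.37-fold, adjusted p = 0.000695). DNAJC7, which binds both HSP70 and HSP90, read 8.07, 7.84, 7.89 and 7.75 in control and 7.63, 7.77, 7.41 and 7.58 with BMP6, and 8.00, 7.75, 7.64 and 7.78 with LH against 7.56, 7.73, 7.51 and 7.56 with LH+BMP6. The ranges overlapped, and it fell by 0.29 ± 0.10 with BMP6 (adjusted p = 0.0491) and differed by -0.20 in the other comparison (adjusted p = 0.168). That call did not survive the removal of any of 11 single arrays, namely control replicates 1, 2 and 3, BMP6 replicates 1, 3 and 4, LH replicates 2 and 4 and LH+BMP6 replicates 1, 3 and 4 (adjusted p from 0.0543 to 0.163, differences of -0.23 to -0.31). DNAJC14 was not called, at 0.18 and 0.20 (adjusted p = 0.0812 and 0.0519), though its ranges were apart in both comparisons. Without dim probe sets DNAJC14 was called higher in both (adjusted p = 0.0437 and 0.0273).

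DNAJA4 and DNAJB2, cytosolic J proteins that direct HSP70, were called with LH+BMP6 against LH. DNAJA4 read 6.86, 6.65, 6.96 and 6.85 in control and 6.97, 7.04, 7.15 and 7.18 with BMP6, and 6.98, 6.73, 6.68 and 6.87 with LH against 7.11, 6.97, 7.13 and 7.31 with LH+BMP6, where the ranges overlapped. It rose by 0.32 ± 0.10 there (adjusted p = 0.0254) and had 0.25 with BMP6 against control (adjusted p = 0.08). The DNAJA4 call did not survive leaving out LH replicate 2 or 3 or LH+BMP6 replicate 3 or 4 (adjusted p from 0.0557 to 0.0815, differences of 0.26 to 0.32). DNAJB2 read 6.66, 6.43, 6.51 and 6.64 in control and 6.40, 6.59, 6.57 and 6.36 with BMP6, and 6.59, 6.72, 6.48 and 6.61 with LH against 6.22, 6.42, 6.29 and 6.38 with LH+BMP6. The last 2 groups were apart, and DNAJB2 fell by 0.27 ± 0.09 (adjusted p = 0.0312) while its difference from control was -0.08 (adjusted p = 0.605). The DNAJB2 call did not survive leaving out LH replicate 1, 2 or 4 or LH+BMP6 replicate 1 or 3 (adjusted p from 0.0613 to 0.0871, differences of -0.23 to -0.28). None of these genes called in 1 of the comparisons alone is shown to differ between them, since the interaction was called for 0 of the 56.

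LH moved no member past the threshold. With LH against control 0 of 56 were called in either direction, against 0.0218% of all named genes called higher and 0% lower. DNAJB12 (0.13) and HSPB3 (0.20), 2 of the 56, had an unadjusted p under 0.05 in limma. So did 496 of all 9155 named genes. Differences ran from -0.13 to 0.22, and for 56 of 56 the 95% interval lay within 1.5-fold in either direction. It did so for 8495 of 9155 named genes. The difference of 0.22 ± 0.12 belonged to DNAJB1, the J protein that activates HSP70 in the heat shock response (adjusted p = 0.92). DNAJB1 read 7.34, 7.42, 7.29 and 7.31 in control, 7.85, 7.71, 7.30 and 7.39 under LH, 7.39, 7.61, 7.32 and 7.27 under BMP6, and 7.55, 7.47, 7.33 and 7.15 under LH+BMP6. LH replicates 1 and 2 were high and LH replicates 3 and 4 lay within the control range or near it, so the groups overlapped.

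With BMP6 present, LH again left the members uncalled. LH+BMP6 against BMP6 gave 0 of 56 in either direction, with 0% of all named genes called higher and 0% lower. In limma, 0 members and 128 of 9155 named genes had an unadjusted p under 0.05. Differences of the members ran from -0.24 to 0.18, and 56 of 56 intervals lay within 1.5-fold, as did 8734 of 9155 for named genes. The interaction of LH and BMP6, which asks whether the BMP6 difference depended on LH, was called for 0 of 56 members, with 0% of all named genes called in either direction and 0 members at an unadjusted p under 0.05. It ran from -0.24 for DNAJB1 to 0.24 for DNAJC5, and 54 of 56 intervals lay within 1.5-fold, those 2 genes being the exceptions. Among 9155 named genes, 7509 had intervals within 1.5-fold and 264 had an unadjusted p under 0.05 in limma. For HSPE1 the interaction was 0.06 (95% interval -0.20 to 0.31), so a difference of that size between the BMP6 responses without and with LH was not detectable with 4 arrays per group.

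**Figure D4:**
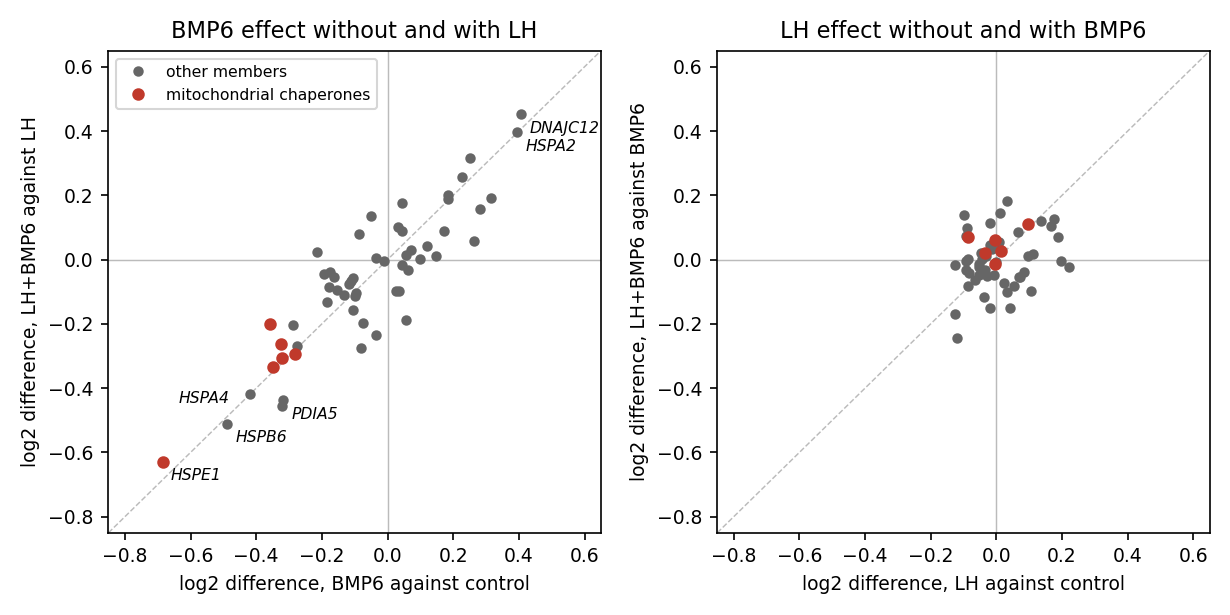
Log2 differences of the 56 genes, each point 1 gene: left, LH+BMP6 against LH (vertical) against BMP6 against control (horizontal); right, LH+BMP6 against BMP6 (vertical) against LH against control (horizontal). On the left the points stretch along the diagonal from HSPE1 at -0.69 and -0.63 to DNAJC12 at 0.41 and 0.45, whereas on the right they stay between -0.24 and 0.22.

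Of the 56 genes, 17 were called in at least 1 comparison and 39 in none. For 50 of 56 the 95% interval of the BMP6 difference without LH lay within 1.5-fold in either direction, and for 49 of 56 that with LH did. The same held for 6978 and 6896 of all 9155 named genes. Under 24 other ways of processing, among them leaving out each array in turn, HSPE1 and DNAJC12 kept both of their calls, DNAJC11 kept its call against control, and CCT6A and HSPA4 kept theirs with LH+BMP6 against LH. When the 3 arrays with weak hybridisation controls were left out, 1 member was called higher (DNAJC12) and 4 lower with BMP6 than in control (HSPE1, HSPA9, DNAJC11 and DNAJC19), against 5.94% and 9.83% of all named genes. The other 9 calls of that comparison then had an adjusted p from 0.0605 for PDIA5 to 0.331 for HSPB6. For LH+BMP6 against LH, 2 were called higher (DNAJC12 and DNAJA4) and 5 lower (HSPE1, DNAJC19, CCT6A, HSPA4 and PDIA5), against 8.52% and 11.2%, and the other 7 had an adjusted p from 0.0542 for HSPD1 to 0.093 for HSPA9. Among the genes of the other lists given with values, ERP29 and PPP1R15A kept both calls, BAG5 kept that against control and BAG3 that with LH+BMP6 against LH, while PFDN5, PFDN6, PFDN2, TBCA, TXNDC5, ERO1A, PPID, FKBP4 and TRAP1 kept none.

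Without control replicate 1, and likewise without control replicate 2, 7 members were called lower with BMP6, against 11.9% and 12.3% of all named genes, and without LH replicate 1, 7 were called lower with LH+BMP6 than with LH, against 11.8%. When the probe sets of a gene were averaged, DNAJC7 was not called against control (-0.27, adjusted p = 0.061), besides the losses of HSPA9, DNAJC19 and PDIA5 given above. When each comparison was fitted to its own 8 arrays, CCT3, DNAJC7 and PDIA5 were not called with BMP6 against control (adjusted p from 0.0696 to 0.0734), and DNAJC11, DNAJA3, HSPA9, DNAJA4 and DNAJB2 were not called with LH+BMP6 against LH (adjusted p from 0.0528 to 0.0902), at unaltered differences.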

How the data were processed

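RNA of cultured theca interna cells was measured on 16 Affymetrix bovine arrays, 4 per group. The deposited values are log2 signals that the authors made with RMA in Affymetrix Expression Console, per the submitters' processing notes; its version is not given in the sources used. RMA includes quantile normalization, so a shift common to all genes would not be seen. No further normalization was applied, and the value columns not used numbered 0.

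Of 24128 probe sets, 112 control probe sets were left out and 24016 tested, with no filter on signal. The platform annotation gave 1 symbol to 13292 of these, several to 86 and none to 10638, and probe sets with several or no symbol name no gene here. By Entrez ID, 55 of the 56 genes matched RefSeq's current table (all but HSPA1A), and 0 symbols changed. The test was limma 3.58.1 in R 4.3.3 (lmFit with 4 group coefficients over 16 arrays, eBayes with trend, Benjamini-Hochberg over 24016 probe sets, called at an adjusted p under 0.05). SEs are limma's moderated ones. The median SE over all probe sets was 0.102, and 0.144 for the interaction. The script was tested on simulated data.

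Values on all arrays are given for the called members with the largest differences, up to 10 in each direction of the BMP6 comparisons, and for 14 fixed stress and folding genes, which makes 27 members. Of the other lists, up to 3 called genes with the largest change are given with values; CCT3, HSPA2 and genes named without array values were added after their values were seen. The members, roles, lists and tests were chosen with earlier results of these data known. The p-values measure the spread between the 4 experiments.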

Additional observations from a re-analysis of the deposited data

Results flagged for a closer look

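Among 108 groups of 4 arrays, 27 members in 4 groups each, 3 held an array far from the other 3. Chance gives about 1 in 20 groups, so these are no more than chance alone would give. PDIA4 read 9.03 in control replicate 1, against 9.38 to 9.43 in the other control arrays. PDIA5 read 8.64 in BMP6 replicate 1, against 9.05 to 9.09 in the other BMP6 arrays. HSP90AA1 read 12.41 in LH replicate 1, against 12.27 to 12.28 in the other LH arrays. Control replicate 1 and LH replicate 1 are also 2 of the 3 arrays with low hybridisation-control signal, and the part of that signal in these values was not tested.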

How the results depend on the processing

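Over 24 alternatives and all 56 genes, 28 calls of a member in a comparison gave 572 values that kept the call and 100 that lost it, 0 calls reversed, and 23 values gained a call. In LH against control, LH+BMP6 against BMP6 and the interaction, no alternative gave a called member. The 2 members called higher with BMP6 against control became 1 with eBayes without a trend, 1 with arrays centred on their median, 1 without the 3 arrays whose hybridisation controls were weak, and 1 to 3 with 1 array left out. The 12 called lower became 4 without those 3 arrays and 7 to 13 with 1 array left out. For LH+BMP6 against LH, the 2 called higher became 4 with the replicate block, 4 without dim probe sets, 1 with only the arrays compared and 1 to 5 with 1 array left out (5 without BMP6 replicate 2), and the 12 called lower became 5 without the 3 arrays and 7 to 12 with 1 array left out. The 6 mitochondrial chaperones called lower became 3 with only the arrays compared and 2 without the 3 arrays in LH+BMP6 against LH, and 4 to 6 with 1 array left out in each comparison. The cause of these changes was not tested, beyond the smaller number of arrays in those that leave arrays out.

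The labels number replicates 1 to 4 in each group without saying array by array that a number marks 1 experiment. Deviations from the group means correlated between same-numbered arrays at 0.32, 0.02, 0.14 and 0.15 for LH and control, 0.03, -0.11, 0.15 and 0.08 for BMP6 and control, 0.17, 0.27, 0.09 and 0.26 for LH+BMP6 and LH, and 0.51, 0.69, 0.08 and 0.24 for LH+BMP6 and BMP6. Since these were not all above 0.1, the numbers were not taken as pairs. Same-numbered arrays averaged 0.16, 0.04, 0.20 and 0.38 in these comparisons, against -0.05, -0.01, -0.07 and -0.12 for different-numbered arrays. The rule therefore does not show that the numbers mark unrelated cultures. With the replicate block, 3 members were called higher and 13 lower for BMP6 against control, and 4 and 13 for LH+BMP6 against LH, while the shares of all named genes rose to 11.7% and 17.8%, and to 13.8% and 17.6%. The block added calls for HSPA2 in both comparisons (adjusted p = 0.039 and 0.0349), for HSPBAP1 against control (0.0395), and for HSPA14 (0.0279) and HSPB3 (0.0495) in LH+BMP6 against LH.

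The brightest probe set stands for a gene. With the mean of its probe sets, 8 and 9 members were called lower in the 2 comparisons, against 14.8% of all named genes in each, and 4 and 4 of the mitochondrial genes. With 4 arrays per group and a median SE of 0.102, differences of the size seen for most members could not be told from 0.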
